A study of Mus musculus with 10 samples.

Results

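The histone deacetylase genes Hdac1 to Hdac10, which encode the zinc-dependent enzymes of classes I and II, were followed through every probe of the array whose transcript belongs to one of them, with each probe kept apart. They are 10 of the 22911 genes with a symbol on the array, and were represented by 19 of its 56605 non-control probes. The cells were colonies of mouse bone marrow that had been transduced with retrovirus to carry the oncogenic fusion kinase BCR-ABL, known from chronic myeloid and some acute lymphoblastic leukaemias. The donor mice were 6 weeks old, transduction took 24 h, and RNA was taken after 10 days in methylcellulose without growth factors. The colonies were Cdk6+/+ (wild type), Cdk6-/-, which lack the cyclin D-dependent kinase CDK6, or Cdk6-K43M, whose CDK6 carries a change known to abolish its kinase activity. Each of 4 Cdk6-/- and 4 Cdk6-K43M samples was labelled with Cy5 and hybridised on 2-colour Agilent arrays together with a Cy3-labelled pool of 4 wild-type samples, the same pool on each array. For each mutant genotype, 1 more array held a pool of its samples with the dyes swapped, which gave 10 arrays. The series calls the 4 samples biological replicates, and the labels do not say whether each came from its own mouse. P-values therefore measure the spread between these samples, and in the fits against the pool also that of the swapped arrays, which hold the same RNA. The wild-type pool counts as 1 control sample whose own spread is left out. In bulk RNA, fewer cells of a type and less RNA per cell cannot be told apart.

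Histone deacetylases remove acetyl groups from lysines of histones and other proteins, and in chromatin this is mostly linked to gene repression. Class I enzymes (Hdac1, Hdac2, Hdac3, Hdac8) sit mainly in the nucleus, where Hdac1 and Hdac2 are the catalytic subunits of the SIN3, NuRD, CoREST and MiDAC complexes, and Hdac3 that of the NCOR complex. Class IIa enzymes (Hdac4, Hdac5, Hdac7, Hdac9) have little deacetylase activity of their own, bind MEF2 transcription factors, and leave the nucleus bound to 14-3-3 proteins once kinases have phosphorylated them. Class IIb enzymes (Hdac6, Hdac10) act largely in the cytoplasm, Hdac6 on tubulin and Hdac10 on polyamines. In B-cell precursors Hdac1 and Hdac2 are needed for proliferation, and Hdac7 is a known repressor of genes of other lineages.

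The windows before the start sites of the class IIa genes are shown because 2 of these genes, Hdac5 and Hdac7, were lower in Cdk6-K43M colonies, whereas Hdac4 and Hdac9 were not past the threshold. Each window is the 250 bases before a RefSeq start site in GRCm38.p6, written 5′ to 3′ on the gene's strand. Capitals mark a CCAAT box (CCAAT), a GC box (GGGCGG), an E2F site (TTTGGCGC or TTTCCCGC) or a MEF2 site, each searched on both strands, with no marked matches overlapping here. Hdac7 has 4 start sites in the table and Hdac9 has 2, and the window with a match is shown for each.
Hdac5, chr11:102230173-102230422, minus strand: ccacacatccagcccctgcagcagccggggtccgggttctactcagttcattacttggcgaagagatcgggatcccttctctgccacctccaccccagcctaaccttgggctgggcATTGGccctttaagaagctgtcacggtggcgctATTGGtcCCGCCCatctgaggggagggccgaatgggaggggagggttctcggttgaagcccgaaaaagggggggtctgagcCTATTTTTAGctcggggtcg
Hdac7, chr15:97831496-97831745, minus strand: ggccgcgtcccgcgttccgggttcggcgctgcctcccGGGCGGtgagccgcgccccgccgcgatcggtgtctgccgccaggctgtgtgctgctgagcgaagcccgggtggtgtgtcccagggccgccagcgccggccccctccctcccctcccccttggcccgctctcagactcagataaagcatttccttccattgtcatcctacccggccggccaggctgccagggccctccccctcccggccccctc
Hdac4, chr1:92180342-92180591, minus strand: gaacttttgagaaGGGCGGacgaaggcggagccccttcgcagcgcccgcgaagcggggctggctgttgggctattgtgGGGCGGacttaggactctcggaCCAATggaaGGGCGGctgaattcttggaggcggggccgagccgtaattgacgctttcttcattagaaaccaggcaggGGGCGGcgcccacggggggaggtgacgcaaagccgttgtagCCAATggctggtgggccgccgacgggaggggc
Hdac9, chr12:34528890-34529139, minus strand: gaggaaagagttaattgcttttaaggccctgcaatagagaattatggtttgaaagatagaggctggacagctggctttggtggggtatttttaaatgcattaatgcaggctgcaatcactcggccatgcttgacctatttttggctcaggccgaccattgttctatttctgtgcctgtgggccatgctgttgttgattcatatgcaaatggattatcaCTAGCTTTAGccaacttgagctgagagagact
The Hdac5 window held 2 CCAAT boxes, 1 GC box and 1 MEF2 site, the last beginning 20 bases before the start. The Hdac7 window held 1 GC box and the other 3 Hdac7 windows held none of the 4 motifs. Hdac4, which was not past the threshold, had more matches than either, with 2 CCAAT boxes and 4 GC boxes. The Hdac9 window held 1 match to the loose MEF2 pattern, with GCTT at its variable bases, where Hdac5 had TTTT. Over all 32851 windows of the same length, 33.8% held a CCAAT box, 32.7% a GC box, 1.3% an E2F site and 3.2% a MEF2 site. In the 11 windows searched, which belong to 7 of the 10 genes, these counts were 4, 5, 0 and 3. The 3 MEF2 matches were those of Hdac5, Hdac9 and Hdac2, the last with CCCG at its variable bases. As the pattern allows any base there, a match need not be a MEF2 site. Windows of Hdac1, Hdac3 and Hdac10 were not part of this search, so the counts do not describe all members. A match is a description of these letters, and binding was not measured.

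Of the 19 Hdac probes, 15 passed the filter on dim probes, and on each of the 10 arrays these exceeded background clearly in either channel. They covered all 10 genes. The 4 probes that did not pass were all for Hdac9, a class IIa enzyme: 3 of them (A_55_P2065074, A_55_P2497024, A_51_P255467) were not well above background on any array, and A_51_P204031 was so in 1 of 4 Cdk6-K43M samples and 1 swapped pool. Their log2 ratios lay between -0.24 and 0.49 and were not tested. The fifth Hdac9 probe, A_55_P1970755, was measured on every array.

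Values of the whole series that touch these results are few. A single probe measured Cdk6, and its position relative to the deleted part is not given, so it does not check the genotypes: its log2 ratios were -0.40 to 0.00 in Cdk6-/- samples and 0.31 to 0.83 in Cdk6-K43M samples. All 14 B-lineage genes chosen as markers (Cd79a, Pax5 and others) were measured, with summed intensities of 522800 to 609600 in Cdk6-/-, 495900 to 568000 in Cdk6-K43M and 432000 to 554800 in the wild-type pool. In Cdk6-K43M colonies 5 of these 14 rose and 3 fell, and in Cdk6-/- colonies 2 rose, where 20.5% and 7.42% of all genes by their brightest probe passed in either direction. These shares are also the background of the marker counts that follow. Of 16 granulocyte, monocyte and macrophage genes 12 were measured, with sums of 6231 to 7924 in Cdk6-/-, 6061 to 21300 in Cdk6-K43M and 9889 to 11410 in the pool, and 5 fell in each mutant. Camp, Mpo and Ngp were not well above background in any single mutant sample, and passed the filter through the wild-type channels only. S100a8 was not well above background in any single Cdk6-/- sample. These genes are among the 5 called in each mutant, and the size of a fall that ends near background is uncertain. The other lists were T and NK cell genes (5 of 8 measured), erythroid and megakaryocyte genes (5 of 8), stromal and endothelial genes (2 of 5) and mast cell genes (0 of 3). Against the pool, 2 T and NK cell genes rose and 1 fell in Cdk6-/- colonies, and 1 rose and 1 fell in Cdk6-K43M colonies; 2 erythroid and megakaryocyte genes rose in Cdk6-/- colonies. Between the genotypes no gene of these lists passed. Cdk6-/- replicate 2 stood apart in sex-linked genes, with a median log2 ratio of -1.04 over 4 genes against 0.03 to 0.05 in the other Cdk6-/- samples. Summed intensities of these 4 genes were 551.8 to 3882 in Cdk6-/-, 814.6 to 3691 in Cdk6-K43M and 2996 to 4009 in the pool. By this sum the lowest Cdk6-K43M sample also lay below every channel of the pool. The part of these values in the Hdac results was not tested.

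The class I enzyme Hdac1 was lower in Cdk6-K43M colonies than in the wild-type pool and than in Cdk6-/- colonies, by both of its probes. With probe A_55_P1970775 the log2 ratios over the pool were -0.19, -0.15, -0.18 and -0.06 in the Cdk6-/- samples and -0.87, -0.81, -0.82 and -0.59 in the Cdk6-K43M samples. The swapped pools gave 0.05 for Cdk6-/- and -0.63 for Cdk6-K43M. Every Cdk6-K43M value lay below every Cdk6-/- value, and the pooled samples with exchanged dyes fell on the same sides. Channel levels for this probe were 14.22 ± 0.14 (SD, n = 4) log2 intensity in Cdk6-/-, 13.62 ± 0.12 (SD, n = 4) in Cdk6-K43M and 14.34 ± 0.16 (SD, 10 channels of 1 pool) in wild type.

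With the second Hdac1 probe, A_65_P09914, the log2 ratios were 0.12, 0.22, 0.18 and 0.03 in the Cdk6-/- samples and -0.61, -1.44, -1.47 and -1.23 in the Cdk6-K43M samples. The swapped pools gave 0.00 and -1.46. The groups again did not overlap, and Cdk6-K43M replicate 1 was the mildest of its group by this probe while it was the lowest by the other. The 2 probes thus shared direction but not size: the fitted change of Cdk6-K43M against the pool was -0.69 (SE 0.0551, 1.62-fold lower) for A_55_P1970775 and -1.30 (SE 0.12, 2.46-fold lower) for A_65_P09914. Both passed limma's moderated test with Benjamini-Hochberg adjustment over 28177 probes, at adjusted p = 6.99e-05 and 0.000143. In Cdk6-/- colonies the fitted changes of Hdac1 were -0.06 (95% interval -0.18 to 0.07, adjusted p = 0.574) and 0.05 (-0.22 to 0.32, adjusted p = 0.835) by limma.

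Between the genotypes, Hdac1 was lower in Cdk6-K43M by 1.54-fold (log2 difference -0.63, SE 0.0825, limma adjusted p = 0.0175) and by 2.51-fold (-1.33, SE 0.177, limma adjusted p = 0.0186). Slides are the glass slides that carry several arrays, and each of the 3 held both genotypes. Within slides 1, 2 and 3 the difference was -0.68, -0.58 and -0.66 with A_55_P1970775 and -0.73, -1.44 and -1.69 with A_65_P09914, so the sign was the same on each slide. The calls between the genotypes sat close to the threshold: both were lost with the slide as a block (adjusted p = 0.071 and 0.0519 by limma), and without Cdk6-/- replicate 1, 2, 3 or 4 or Cdk6-K43M replicate 3 in turn, where adjusted p was 0.0503 to 0.076. Without Cdk6-K43M replicate 1 the call of A_55_P1970775 was lost (adjusted p = 0.0643 by limma) and without Cdk6-K43M replicate 4 that of A_65_P09914 (0.0518), while the log2 differences over all alternatives stayed between -0.69 and -0.46 and between -1.52 and -1.23.

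**Figure D1:**
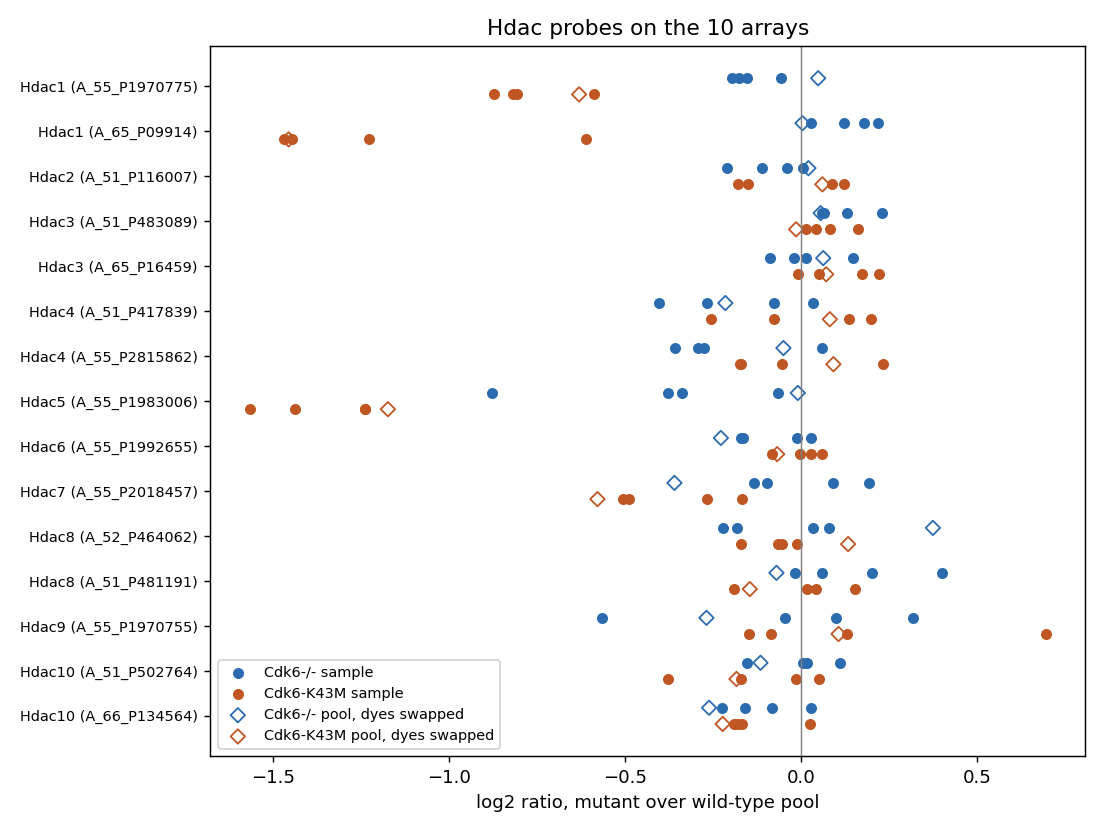
Log2 ratio over the wild-type pool (x axis) of the 15 Hdac probes that passed the filter (y axis). Filled circles are the 4 single samples of each genotype and open diamonds the pools with swapped dyes, sign reversed. Both Hdac1 probes, Hdac5 and Hdac7 have all Cdk6-K43M samples below all Cdk6-/- samples, for Hdac1 probe A_65_P09914 at -1.47 to -0.61 against 0.03 to 0.22.

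The other class I enzymes did not pass the test in any comparison. Hdac2, the close paralogue of Hdac1, had log2 ratios of -0.04, 0.01, -0.21 and -0.11 in Cdk6-/- and -0.18, -0.15, 0.09 and 0.12 in Cdk6-K43M samples. The groups overlapped, and the fitted difference of Cdk6-K43M from the pool was 0.02 with a 95% interval of -0.12 to 0.16. That interval does not reach the changes fitted for Hdac1, although the difference between the 2 genes was itself not tested. The Hdac2 probe was dim, at 7.63 log2 intensity in the pool against 14.34 and 12.02 for the Hdac1 probes. Ratios of so dim a probe may be compressed, which was not tested. Hdac3, the enzyme of the NCOR complex, was measured by 2 probes with fitted changes of 0.03 to 0.10 in Cdk6-K43M and 0.02 to 0.08 in Cdk6-/-. Hdac8, an X-linked enzyme that works outside these complexes, was measured by 2 probes, A_52_P464062 and A_51_P481191. Their fitted changes were 0.12 and 0.06 in Cdk6-/- and 0.06 and -0.08 in Cdk6-K43M. Both Hdac8 probes were dim too, at 8.24 and 7.46 log2 intensity in the pool. With A_52_P464062 the single Cdk6-K43M samples were all below 0 (-0.17 to -0.01) and their swapped pool was at 0.13. For Hdac8 the pools with swapped dyes gave the highest of the 5 Cdk6-/- values with A_52_P464062 (0.37) and the lowest with A_51_P481191 (-0.07). Neither Hdac8 nor the other X-linked member, Hdac6, passed when Cdk6-/- replicate 2 or any other single sample was left out.

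Among the class IIa enzymes, Hdac5 showed the clearest change in Cdk6-K43M. Hdac5 is a signal-responsive corepressor of MEF2, and its log2 ratios were -0.06, -0.88, -0.34 and -0.38 in Cdk6-/- samples and -1.44, -1.24, -1.24 and -1.56 in Cdk6-K43M samples. The swapped pools gave -0.01 and -1.17. All Cdk6-K43M samples were low and close together, while the Cdk6-/- samples spread widely below the pool, with replicate 2 the lowest, and none reached the Cdk6-K43M samples. Channel levels were 11.58 ± 0.35 (SD, n = 4) log2 intensity in Cdk6-/-, 10.59 ± 0.20 (SD, n = 4) in Cdk6-K43M and 11.95 ± 0.08 (SD, 10 channels of 1 pool) in wild type.

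The fitted Hdac5 change against the pool was -1.24 in Cdk6-K43M (SE 0.112, 2.36-fold lower), and limma gave adjusted p = 0.00013. In Cdk6-/- colonies it was -0.24 (95% interval -0.49 to 0.01, limma adjusted p = 0.216), and -0.14 without replicate 2. The 4 single Cdk6-/- samples alone, without the swapped arrays and the dye term, gave -0.41 with limma adjusted p = 0.0451, so the Cdk6-/- result falls on either side of the threshold depending on these arrays. Between the genotypes the log2 difference was -0.95 (SE 0.163, 1.94-fold), with groups that did not overlap, and limma adjusted p = 0.0508 did not pass. Without Cdk6-/- replicate 2 the difference (Cdk6-K43M versus Cdk6-/-: Hdac5 probe A_55_P1983006) was -1.11 and passed (limma adjusted p = 0.0192). Within slides it was -1.37, -1.04 and -0.36, the smallest on the slide that held Cdk6-/- replicate 2.

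Hdac7, the class IIa member that is prominent in lymphocyte precursors, was also lower in Cdk6-K43M, by less. Its log2 ratios were 0.09, -0.13, -0.10 and 0.19 in Cdk6-/- samples and -0.50, -0.27, -0.17 and -0.49 in Cdk6-K43M samples, with -0.36 and -0.58 in the swapped pools. The single samples did not overlap, but the lowest Cdk6-/- sample (-0.13) lay close to the highest Cdk6-K43M sample (-0.17), and the swapped Cdk6-/- pool was below 2 of the Cdk6-K43M samples. The fitted change was -0.49 in Cdk6-K43M (SE 0.0753, 1.4-fold lower, limma adjusted p = 0.00195) and -0.15 in Cdk6-/- (95% interval -0.32 to 0.02, limma adjusted p = 0.25). Centring each array on its median in place of loess ended this call, at -0.22 with limma adjusted p = 0.105. Between the genotypes the difference of -0.37 (SE 0.11) did not pass, with limma adjusted p = 0.21, and within slides it was -0.60, -0.42 and -0.03.

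Hdac4, which shares MEF2 binding with Hdac5 and Hdac7, did not pass. Its 2 probes gave fitted changes of 0.02 and 0.03 in Cdk6-K43M (95% intervals -0.17 to 0.22 and -0.15 to 0.22) and of -0.18 and -0.14 in Cdk6-/-. Single samples ranged from -0.40 to 0.23 and overlapped between the genotypes. Hdac9 probe A_55_P1970755 had log2 ratios of -0.05, 0.32, 0.10 and -0.56 in Cdk6-/- and -0.09, 0.69, 0.13 and -0.15 in Cdk6-K43M samples. With an SD within genotypes of 0.379, above that of 92.8% of kept probes, it gave a fitted change of 0.10 in Cdk6-K43M with a 95% interval of -0.24 to 0.44, the widest of the 15 probes together with its interval in Cdk6-/-. In the pool the 2 Hdac4 probes (8.25 and 7.03 log2 intensity) and this Hdac9 probe (7.33) were dimmer than Hdac5 (11.95) and Hdac7 (14.05).

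**Figure D2:**
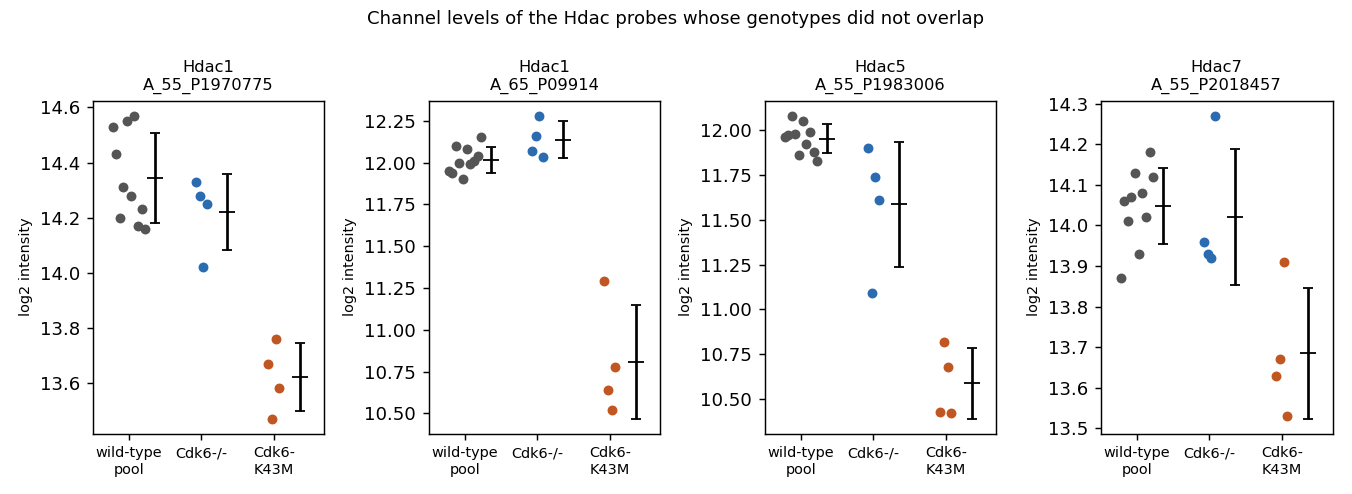
Log2 channel intensity (y axis, a different range in each panel) of the 4 Hdac probes whose genotypes did not overlap, in the wild-type pool (10 channels of the same pool), the 4 Cdk6-/- and the 4 Cdk6-K43M samples. Bars are the mean ± SD, and the Hdac5 mean is 10.59 in Cdk6-K43M against 11.58 in Cdk6-/- and 11.95 in the pool.

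The class IIb enzymes stayed within 1.14-fold of the pool in fitted value. The tubulin deacetylase Hdac6 had log2 ratios of -0.17, 0.03, -0.17 and -0.01 in Cdk6-/- samples and 0.03, -0.08, 0.00 and 0.06 in Cdk6-K43M samples, and neither fit passed. Hdac10 probe A_66_P134564 had ratios of -0.08, -0.22, 0.03 and -0.16 in Cdk6-/- and -0.19, -0.18, 0.03 and -0.17 in Cdk6-K43M samples, with -0.26 and -0.22 in the swapped pools. The 2 genotypes overlapped almost fully. The fitted change in Cdk6-K43M, -0.18 (SE 0.0571), just passed with limma adjusted p = 0.0463, and nearly the same change in Cdk6-/-, also -0.18, did not (limma adjusted p = 0.0915). The other Hdac10 probe, A_51_P502764, gave -0.16 in Cdk6-K43M with limma adjusted p = 0.14, and its sign turned (0.03) when arrays were centred on their median without loess.

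Counted over the 15 measured probes, 5 passed in Cdk6-K43M against the pool and all were lower: both Hdac1 probes, Hdac5, Hdac7 and 1 of 2 Hdac10 probes. This is 33.3% of the probes, beside 20.2% of all 28177 kept probes (10.2% called lower and 10.1% higher). In Cdk6-/- against the pool 0 of 15 passed limma's test, where 6.8% of all probes did (3.14% higher, 3.66% lower), with 2 at an unadjusted p under 0.05 (Hdac6 and Hdac10 A_66_P134564). Between the genotypes 2 of 15 passed, both for Hdac1 and both lower in Cdk6-K43M, where 0.454% of all probes passed (0.224% higher, 0.231% lower). The single samples of the genotypes did not overlap for 4 of 15 probes, beside 8.1% of all probes with values in every sample. All 5 arrays of Cdk6-K43M had one sign for 4 of the 15 probes, beside 30.3% of all, and all 5 of Cdk6-/- for 3, beside 24%. The median fitted change of the 15 probes was -0.05 in Cdk6-K43M and -0.06 in Cdk6-/-, against -0.01 and 0.00 over all probes, so most members lay near the pool in both genotypes. Both comparisons with wild type used the same pool. Centring on the median without loess moved the median of all probes in Cdk6-K43M to 0.11 and the share of calls that were higher from 49.7% to 88.1% (in Cdk6-/- from 46.2% to 63.4%, between genotypes from 49.2% to 64.6%). Under that scaling Hdac1 in Cdk6-K43M fell by 0.42 and 1.11, Hdac5 fell by 1.05 and the 2 Hdac3 probes passed as higher (0.22 and 0.18).

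**Figure D3:**
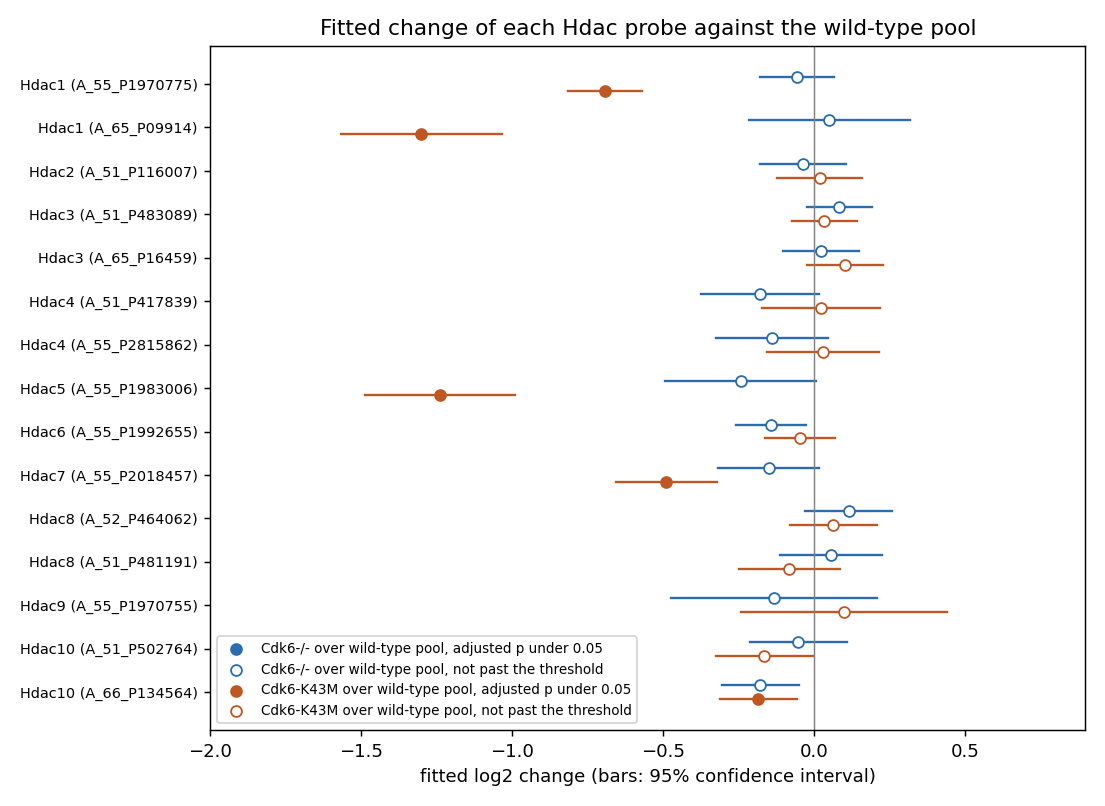
Fitted log2 change over the wild-type pool (x axis) with 95% confidence intervals for the 15 Hdac probes (y axis), from limma on all 10 arrays with a dye term. Filled circles have an adjusted p under 0.05. In Cdk6-K43M 5 probes are filled, from -1.30 for Hdac1 to -0.18 for Hdac10, and in Cdk6-/- none is.

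The genes most alike in pattern to Hdac1 probe A_65_P09914, the member with the largest fitted change, were Lrp6 (Pearson r = 0.978), Exoc1 (0.976) and Rac2 (0.974) over the 8 single-sample arrays. They were ranked among genes with a symbol, 12997 before Hdac genes and clone names were left out. The other Hdac1 probe correlated with this one at 0.873, so the pattern matched is that of 1 probe. These r values rest on groups that do not overlap. Lrp6, a Wnt co-receptor, ranged from -0.03 to 0.17 in Cdk6-/- and from -1.08 to -0.66 in Cdk6-K43M samples. Exoc1, a subunit of the exocyst, ranged from -0.21 to -0.13 and from -0.50 to -0.33. Rac2, a small GTPase of blood cells, ranged from -0.42 to -0.36 and from -0.59 to -0.48, so it was below the pool in every sample of both genotypes.

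The partners and opponents of the deacetylases were read from 10 lists, with 74 genes measured and the brightest kept probe standing for each gene. Against the pool 25 of 74 passed in Cdk6-K43M (13 higher, 12 lower) and 11 in Cdk6-/- (6 higher, 5 lower). These are 33.8% and 14.9%, beside 20.5% (9.97% higher, 10.5% lower) and 7.42% (3.5% higher, 3.92% lower) of all 22008 genes and unnamed transcripts, and the lists' medians were 0.00 and 0.01. Between the genotypes no gene of these lists passed, where 0.573% of all genes did (0.286% in each direction). If the spread of the pool is allowed for by widened standard errors, 4 of the 25 calls in Cdk6-K43M were left, among them Kat5, Mef2c and Rcor3, and 0 of the 11 in Cdk6-/-, whereas both Hdac1 probes, Hdac5 and Hdac7 still passed.

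In the CoREST complex, which pairs Hdac1 and Hdac2 with the demethylase Kdm1a, 3 of 7 genes rose in Cdk6-K43M, 3 rose in Cdk6-/- and none fell. Rcor3, a scaffold subunit, changed by 0.52 in Cdk6-K43M (SE 0.0711) and 0.31 in Cdk6-/-. Its 2 other probes (0.14 and 0.09 in Cdk6-K43M, 0.02 and 0.07 in Cdk6-/-) did not pass. Kdm1a rose by 0.21 in Cdk6-K43M, and Phf21a, a histone-reading subunit, by 0.38 in Cdk6-/-, where the other Phf21a probe (0.08) did not pass. Of 14 SIN3 complex genes, 2 rose and 2 fell in Cdk6-K43M, and 1 rose and 1 fell in Cdk6-/-. The scaffold Sin3a fell by 0.34 and the histone-binding Rbbp4 by 0.47 in Cdk6-K43M, while Brms1l rose in both genotypes (0.22 in Cdk6-K43M and 0.24 in Cdk6-/-). For Sin3a and Rbbp4 the single samples of both genotypes were all below the pool, and the swapped pools (-0.10 and -0.05 for Sin3a, -0.15 and -0.18 for Rbbp4) were higher than any of them.

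Of 9 NuRD genes, 1 rose and 1 fell in Cdk6-K43M and 1 rose in Cdk6-/-. Mta3, a subunit found in lymphoid cells, rose by 0.46 in Cdk6-K43M, and its 2 other probes rose too (0.24 and 0.45). Mta2 passed as higher in Cdk6-/- (0.19), although all 4 single samples were below 0 (-0.17 to -0.01) and only the swapped pool was above it (0.46). Without the swapped arrays its change was -0.08. In the NCOR complex, the subunit Tbl1xr1 fell by 0.21 in Cdk6-K43M and 0.26 in Cdk6-/-, although its other probe (-0.02 and -0.06) did not pass, and the scaffold Ncor1 did not pass in either. In the MiDAC complex Dnttip1 passed as higher in Cdk6-K43M (0.15), a value above each of its single samples (0.02 to 0.07) and below the swapped pool (0.27). The other measured gene, Mideas, did not pass, and neither passed in Cdk6-/-.

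The class IIa partners and kinases included the gene with the largest fitted change of these 10 lists, Mef2c in Cdk6-K43M. Of 9 measured genes, 2 rose and 4 fell in Cdk6-K43M, and 2 fell in Cdk6-/-. Mef2c, the MEF2 factor of B cells, had log2 ratios of -0.61, -0.65, -0.46 and -0.72 in Cdk6-/- samples and -1.08, -1.19, -0.70 and -1.66 in Cdk6-K43M samples, with -0.75 and -1.23 in the swapped pools. It was below the pool on all 10 arrays, and the genotypes overlapped by a little. The fitted changes were -0.67 in Cdk6-/- (SE 0.12, limma adjusted p = 0.0128) and -1.20 in Cdk6-K43M (limma adjusted p = 0.000226), and a second Mef2c probe gave -0.47 and -0.76. Sik1, a kinase that phosphorylates class IIa enzymes, fell by 0.92 in Cdk6-/- and by 0.76 in Cdk6-K43M. Mef2a fell by 0.26 in Cdk6-K43M, although its other probe (-0.17) did not pass. Of 7 genes for 14-3-3 proteins, 1 fell in each genotype: Ywhaz by 0.25 in Cdk6-/-, and Ywhaq by 0.23 in Cdk6-K43M, where median centring without loess turned its sign (0.01). The other Ywhaz probe (-0.07 in Cdk6-/-) and the other Ywhaq probes (-0.20, -0.13 and -0.14 in Cdk6-K43M) did not pass.

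**Figure D4:**
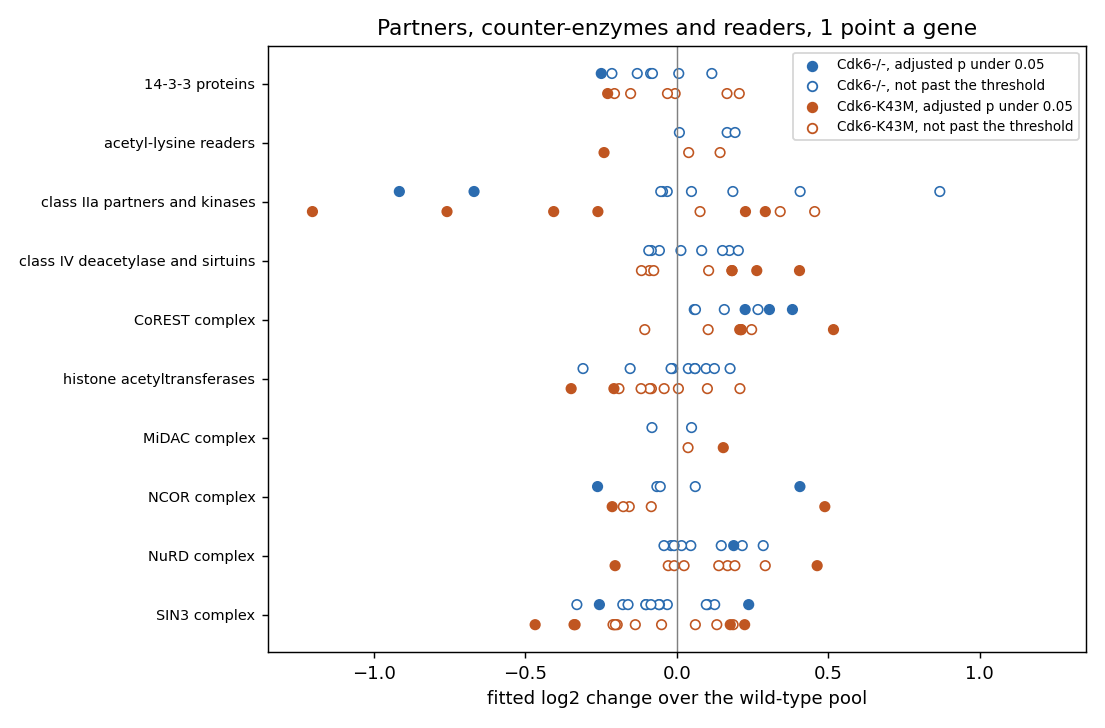
Fitted log2 change over the wild-type pool (x axis) of the genes of each list (y axis), 1 point a gene by its brightest probe, for Cdk6-/- and Cdk6-K43M. Filled points have an adjusted p under 0.05. The lowest point is Mef2c in Cdk6-K43M at -1.20, and the sirtuin list has 3 filled points, all above 0.

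The list of other deacetylases holds the class IV enzyme Hdac11, which is zinc-dependent too, and the sirtuins, which use NAD. Of its 8 genes, 3 rose in Cdk6-K43M and none passed in Cdk6-/-. Sirt3, a mitochondrial deacetylase, rose by 0.41 (SE 0.0738, limma adjusted p = 0.00449), with single samples at 0.37 to 0.59. Sirt4 rose by 0.26, and Sirt7 did not pass. Of 10 histone acetyltransferase genes, which add the mark that deacetylases remove, 2 fell in Cdk6-K43M and none passed in Cdk6-/-. Kat5 fell by 0.35 (SE 0.0536, limma adjusted p = 0.00195) with a second probe at -0.26. Kat7 fell by 0.21, and its sign turned (0.02) with median centring without loess. Among the bromodomain readers of acetylated lysine, Brd2 fell by 0.24 in Cdk6-K43M, also with a sign that turned (0.02) under that centring, and Brd3 did not pass. By their dimmer probes in Cdk6-K43M, Brd2 (-0.185) did not pass and Brd3 (0.20) did. For Brd2 the single Cdk6-K43M samples (-0.56 to -0.28) were all lower than the fitted value and the swapped pool was at -0.04, while the Cdk6-/- samples were at -0.26 to -0.19 and their swapped pool at 0.27.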

How the data were processed

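Total RNA was amplified, labelled (100 ng) and hybridised on the 10 Agilent arrays of 2 colours each, per the labels' protocols. Spot and background intensity values come, per the file headers, from Agilent Feature Extraction 11.5.1.1, with probes designed on mm9. The authors also deposited log2 values in a table whose name gives loess normalization, used as an alternative; 68 of its cells held dates and were set to missing.

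Median spot signals were corrected by normexp (offset 50) on median local background and loess normalized within arrays, control spots weighted 0, with limma 3.58.1 in R 4.3.3. Non-uniform spots were set to missing (185 values), and spots of a probe averaged. Channel levels were Aquantile normalized after loess. A probe was kept (28177) if 3 or more of the 4 samples of either mutant, or 5 or more of the 10 wild-type channels, exceeded background by the scanner's own call. Symbols came from RefSeq (GRCm38.p6), which matched 58.3% of probes.

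Mutants were compared with the pool on all 10 arrays (swapped signs reversed, dye term), and the 2 mutants were compared over their 8 single samples, by lmFit and eBayes with Benjamini-Hochberg adjustment over kept probes (threshold 0.05). Because the swapped pools were made from those samples' RNA, their arrays are not independent of the others. The fits against the pool treat each as if it were independent, and can lie between the single samples and the swapped pool. For Hdac7 in Cdk6-/- the mean of the single samples was 0.01, the swapped pool -0.36 and the fit -0.15. The fitting code was also run on simulated data in which the arrays were drawn independently. That run cannot show the effect of the shared RNA or the shared pool. No spot was saturated. Well above background were 46.9 to 49.9% of probes in mutant channels and 45.8 to 50% in wild-type channels, and the number of arrays limits the precision.

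All Hdac1 to Hdac10 probes are reported; in each list up to 3 genes with the smallest p over the comparisons are named, and the other calls are counted; some genes of the lists are not reported here. The 3 genes of like pattern were ranked without clone names. The members and lists were chosen with earlier results of these data known. Alternatives changed the background correction, normalization, value source, filter, probe choice, slide, swapped arrays, pool spread, replicate block and single samples.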

Additional observations from a re-analysis of the deposited data

Results flagged for a closer look

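Hdac10 probe A_66_P134564 had 1 Cdk6-K43M sample far from the others: replicate 3 stood at a log2 ratio of 0.0256, while the other 3 samples lay between -0.19 and -0.17. Of 30 groups of 4 samples examined for the 15 measured Hdac probes, this was the only 1 with such a gap, and chance alone flags about 1 group in 20. Without that sample the fitted Hdac10 change in Cdk6-K43M was -0.21 (limma adjusted p = 0.031).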

How the results depend on the processing

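Hdac1 (17 and 18 alternatives, each probe) and Hdac5 (18) stayed below the wild-type pool and past the threshold in Cdk6-K43M, from -1.43 to -0.42 and from -1.37 to -1.05, and Hdac7 did so in 17 of 18. Hdac10 probe A_66_P134564 passed in 7 of 17. The number of Hdac probes past the threshold in Cdk6-K43M was 3 with the brightest probe of each gene, by construction, and 4 or 5 when single samples were left out. In Cdk6-/- it was 1 without the swapped arrays and dye term, and 0 in every leave-one-out fit. Between the genotypes it was 1 with median centring, 1 with the brightest probe, 0 with the slide as a block, and 0 to 2 when single samples were left out. In the same comparison Hdac5 passed in 4 of 18 alternatives (limma adjusted p from 0.00747 to 0.145 over all of them). Hdac1 passed in 9 of 18 with A_55_P1970775 and in 9 of 17 with A_65_P09914.

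Samples that shared only a replicate number correlated at 0.09, -0.06, 0.23 and 0.15 in their deviations. Pairs with different numbers ranged from -0.246 to 0.195. With the replicate block, 0 Hdac probes passed between the genotypes (Hdac1 limma adjusted p = 0.0577 and 0.0672), and calls over all probes went from 128 to 41. All-probe calls were also fewer with the slide as a block (38) and when 1 sample was left out (49 to 104), and more with all 10 arrays and a dye term (674). In Cdk6-/- they were 132 with widened standard errors, 742 and 1128 without replicates 1 and 2, 1010 with median centring, 1033 with the slide and 3853 without the swapped arrays, against 1916. In Cdk6-K43M they were 1543 with widened standard errors, against 5705. Signs turned for Mta2 in Cdk6-/- without the swapped arrays (-0.083), and in Cdk6-K43M with median centring for Ywhaq (0.0099), Brd2 (0.0179) and Kat7 (0.0161). Of fitted Hdac values that passed in neither setting, 6, 14 and 8 changed sign in the comparisons of Cdk6-/-, of Cdk6-K43M and between the genotypes. Of 449 list values in Cdk6-K43M 82 fell short of the threshold, and of 197 in Cdk6-/- 83. Where not stated as construction, the cause was not tested.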
